A study of Nothobranchius furzeri with 10 samples.

Results

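The 100 most abundant transcripts in the muscle of the turquoise killifish are described here across 10 RNA sequencing libraries. Each count was divided by its library's total and multiplied by 1000000 (CPM), and the 100 gene models with the highest mean CPM over 8 libraries were taken, out of 26739 gene models in all. These levels chose the gene models, so their height is a description and not a result. Rank 100 had a mean of 1040 CPM and the next gene model below it a mean of 1036 CPM, so the lower edge of the set has no gap. All 100 passed the filter on low counts, and the lowest count of any of them in any library was 7341.

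The fish, Nothobranchius furzeri, is a short-lived annual species. All samples came from males of line 4010 at 10 weeks of age, and the strain label of both groups names the transgene Tg(mylz2:egfp,tfam). Read in the usual notation, the mylz2 gene of a fast-muscle myosin light chain supplies the promoter, egfp is a green fluorescent reporter and tfam a packaging and transcription factor of mitochondrial DNA. The exercised group (5 libraries) had been perturbed in a swim tunnel and the unexercised group (5 libraries) had no perturbation. No library without the transgene was used here. Whether each library is from an animal of its own is not stated, and the p-values below measure only the spread between these libraries, which may be technical.

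Skeletal muscle holds a small number of proteins in very large amounts, and its RNA is known for the same imbalance. The filament proteins that contract, the pumps and buffers that move calcium, and the enzymes that regenerate ATP by creatine kinase, glycolysis and mitochondrial respiration make up much of it, beside the ribosomal proteins that every cell uses. Which gene model here encodes which of these is not known: the count table pairs no identifier with a name, and 0 of the 26739 identifiers matched the RefSeq gene table of assembly NfurGRZ-RIMD1. Gene models are therefore called by their abundance rank, from 1 for the highest. For the same reason the tissue could not be checked against marker genes, and no sequence is shown.

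The libraries held 25927913 to 40433810 counts and 19458 to 20388 gene models with at least 1 count. Replicate numbers follow the order of accession within a group and pair nothing. In each group 1 library stood apart from the other 4, exercised replicate 3 (titled nf_4) and unexercised replicate 4 (nf_11). They are not among the 8 libraries that chose the gene models. Shares and tests are given with and without them, and the spread between libraries, the order per length and the extremes are given mainly for the 8. At this depth counting error is small: the 95% Wilson interval of the summed share was at most 0.0382 percentage points wide in any library. Such intervals cover counting error only, since reads amplified without molecular identifiers are not independent molecules.

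The 100 gene models together took 68.0%, 66.5%, 63.7% and 62.9% of all counts in exercised replicates 1, 2, 4 and 5. In unexercised replicates 1, 2, 3 and 5 they took 64.7%, 67.0%, 63.3% and 64.8%. The ranges of the 2 groups overlap, with a mean of 65.2% ± 2.36 for exercised muscle and of 65.0% ± 1.51 for unexercised muscle (SD, n = 4 each). Exercised replicate 3 gave 44.0% and unexercised replicate 4 gave 42.0%, both far below the lowest of the other 8. With these libraries included the means were 61.0% ± 9.73 and 60.4% ± 10.4 (SD, n = 5 each). No p is given for these sums, because the gene models were chosen by their levels in these libraries.

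The set was steeply graded. Over the 8 libraries the gene model of rank 1, Nfu_g_1_002091, took 14.0% ± 1.32 of all counts, that of rank 2 took 5.20% ± 0.70 and that of rank 3 took 4.59% ± 0.53 (SD, n = 8 each). Ranks 1 to 10 together took 41.6% ± 1.46, ranks 11 to 50 took 16.9% ± 0.66 and ranks 51 to 100 took 6.58% ± 0.30 (SD, n = 8 each). Between 16 and 24 gene models were enough to reach 50% of the counts in each of the 8 libraries. In exercised replicate 3 it took 129 gene models and in unexercised replicate 4 it took 141. The gene model of rank 1 was the highest in all 10 libraries, and ranks 1 to 10 were also the 10 highest gene models in 5 of the 8 libraries.

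**Figure D1:**
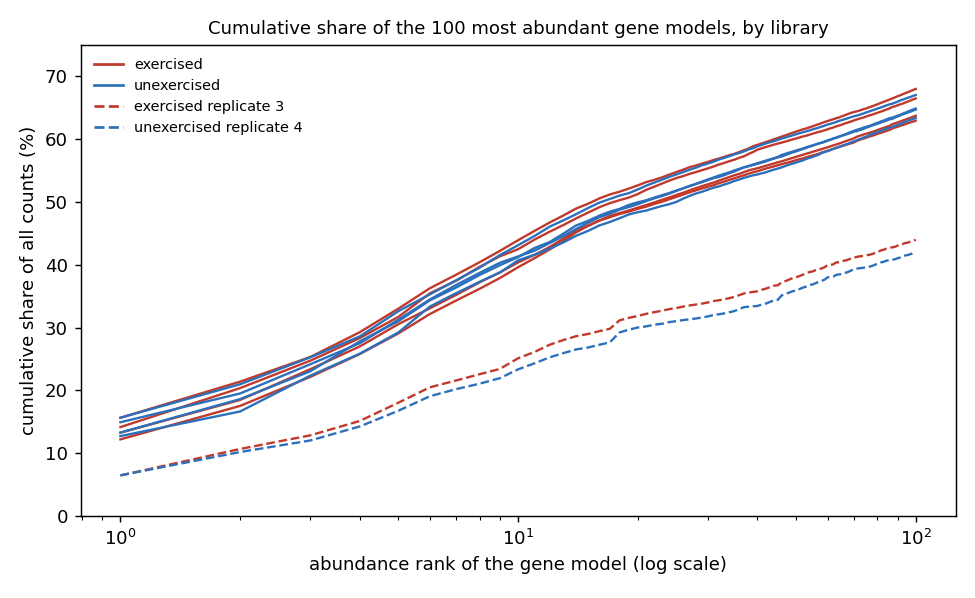
Cumulative share of all counts (y axis, percent) taken by the 100 gene models in order of abundance rank (x axis, log scale), 1 line per library, red for exercised and blue for unexercised. The 8 solid lines end between 62.9% and 68.0%; the dashed lines of exercised replicate 3 and unexercised replicate 4 end at 44.0% and 42.0%.

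A count is larger for a longer transcript, so the order was also read per length. Lengths came from the deposited tables, and RPKM (CPM per kilobase of the gene model) were recomputed from the counts. On the RPKM scale 59 of the 100 gene models stayed among the 100 highest and 41 did not. The highest level per length was that of rank 4, a gene model of 342 bases, with 108958 ± 13529 RPKM (SD, n = 8). Rank 1, of 1813 bases, came next with 77240 ± 7275 RPKM, and rank 11, of 330 bases, followed with 39368 ± 8033 RPKM (SD, n = 8 each). The 10 highest levels per length all belonged to the set, and 8 of them to ranks 1 to 10. The 100 gene models had a median length of 2226 bases, against 2446 bases over the 22169 gene models with a length. Of the 100, 23 were shorter than 1000 bases (20.1% of all with a length) and 5 were longer than 10 kilobases (2.54% of all).

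The longest members, of ranks 13 and 14, had 88546 and 67190 bases. Per length they were far lower, with 132 ± 17.1 and 173 ± 21.6 RPKM (SD, n = 8 each). They lay at places 325 and 271 in the order per length. In the 8 libraries their CPM stayed close to each other, at ratios of 0.955 to 1.04 of rank 13 to rank 14. The ratio was 1.24 for exercised replicate 3 and 1.16 for unexercised replicate 4, both above the 8. Whether these gene models share reads cannot be told, since the sources used here do not give how reads that fit several gene models were treated.

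The spread of each level between the 8 libraries was measured next. The coefficient of variation (CV, the SD over the mean) of CPM had a median of 11.8% over the 100 gene models, with quartiles of 9.53% and 15.5%. Counting error alone gives 0.0467% to 0.542%, so at these counts it is a small part of the spread. The next 900 gene models in the order had a median CV of 15.5%, with quartiles of 11.2% and 23.4%, which is a description with no test. With totals scaled by TMM factors, explained below, the median CV of the set over the 8 was 15.6%. The next 900 were not measured that way, so the difference between them and the set is given on library totals only. Within groups the median CV of the set on library totals was 10.5% over the 4 exercised and 11.1% over the 4 unexercised libraries. With all 10 libraries it was 21.3%.

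The steadiest gene model was that of rank 55, which had 1581, 1606, 1603 and 1619 CPM in exercised replicates 1, 2, 4 and 5. It had 1566, 1642, 1564 and 1563 CPM in unexercised replicates 1, 2, 3 and 5, a CV of 1.85% over the 8. On library totals the values of both groups interleave within a range of 1.05-fold. The CV of single gene models was not measured with other scalings, so this order of steadiness holds on library totals only. Ranks 16 and 7 followed, with CVs of 2.59% and 4.44%. Exercised replicate 3 had 967 CPM and unexercised replicate 4 had 1004 CPM of it, so its steadiness covers the other 8 libraries only.

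A CV above 30% was found for 6 of the 100, those of ranks 21, 40, 46, 58, 71 and 87. Rank 87 had the highest, 58.8%, and it is the gene model that passed the test between the groups with 8 libraries, described below. Rank 71 followed with 45.6%. Its levels were 886, 1339, 2128 and 2179 CPM in exercised replicates 1, 2, 4 and 5 and 490, 789, 1415 and 1401 CPM in unexercised replicates 1, 2, 3 and 5. These groups overlap, since 2 of the unexercised libraries lie above 2 of the exercised ones. Rank 40 (CV 35.9%) was highest in 1 library of each group, with 3690 CPM in exercised replicate 2 and 2976 CPM in unexercised replicate 2, against 1324 to 2243 CPM in the other 6. Over the whole set, 8 gene models differed more than 2-fold between the highest and the lowest of the 8 libraries.

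No library of the 8 carried the extremes throughout, though exercised replicate 5 held the lowest level for 31 of the 100 gene models and unexercised replicate 5 the highest for 23. Of the next 900 gene models, 11.2% were lowest in exercised replicate 5 and 14.3% highest in unexercised replicate 5. These counts rest on the scaling. With TMM factors, which scale libraries to the bulk of their gene models and not to their totals, exercised replicate 1 held the highest level for 52 and exercised replicate 5 the lowest for 49. Computed over the 8 libraries alone, the TMM factors of these libraries were 0.873 and 1.09, the lowest and the highest of the 8. The next 900 gene models were not counted with TMM factors, so the counts of 52 and 49 have nothing to be compared with.

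**Figure D2:**
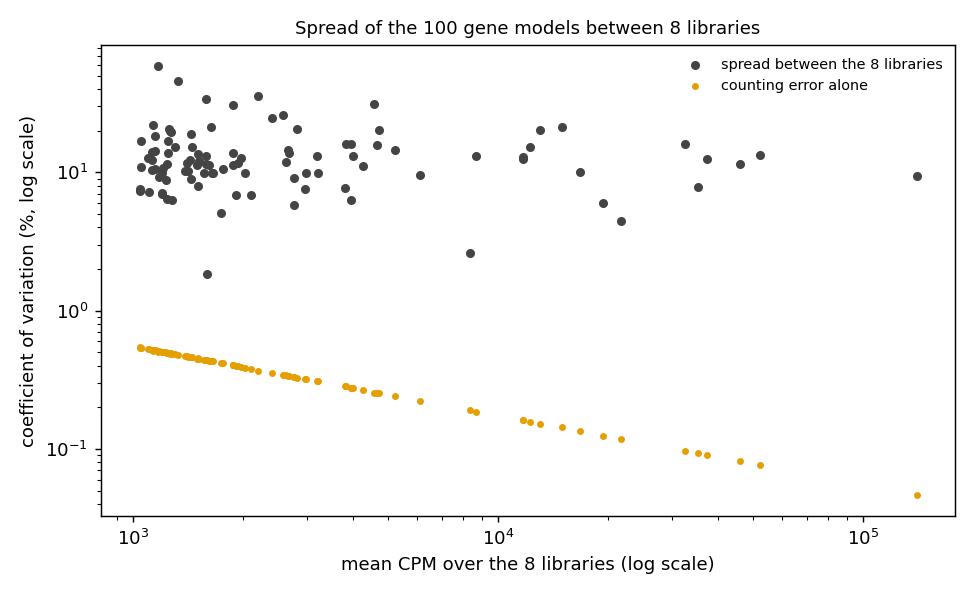
Coefficient of variation between the 8 libraries (dark points) and that expected from counting error alone (orange points), in percent on a log scale, against mean CPM on a log scale, 1 point of each per gene model. The dark points run from 1.85% to 58.8%, with a median of 11.8%, and the orange points reach 0.542%, which shows the precision that these counts give.

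The comparison of exercised with unexercised muscle asked which of these transcripts differed after the swim tunnel. The set was chosen by the mean over the same 8 libraries, so a gene model high in 1 group can be a member through that group alone. Calls were made at an adjusted p under 0.05 (edgeR, quasi-likelihood). With 8 libraries 1 of the 100 was called, as higher in exercised muscle, and 0 as lower. Over all 15200 gene models tested, 6.34% were called, 3.96% as higher and 2.38% as lower. An unadjusted p under 0.05 was reached by 2 of the 100, against 21.6% of all tested. That count depends on the scaling and the test. It was 2 with RLE factors and 7 with library totals in edgeR, 5 with DESeq2 and 5 with limma voom with quality weights. The shares of all tested were not computed for these alternatives.

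With all 10 libraries the same test passed 0 of the 100 gene models and 0% of 15337. At an unadjusted p under 0.05 there was 1 of the 100, against 9.52% of all. With the same 10 libraries DESeq2 called 1 of the 100 as higher, against 2.69% of all tested (1.81% higher, 0.88% lower). Limma voom with quality weights also called 1 as higher, against 11.9% of all (7.19% higher, 4.67% lower). With 8 libraries DESeq2 called 1, against 10.3% (6.34% higher, 3.97% lower), and limma voom 1, against 11% (6.7% higher, 4.29% lower). With library totals in place of TMM factors edgeR called 1 of the 100 with 8 libraries, against 4.04% (2.26% higher, 1.78% lower). With 10 libraries and library totals it called 0 of the 100, against 0.013% of all, each of these higher (0.013%). Wherever 1 was called, it was rank 87.

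The gene model of rank 87, Nfu_g_1_001708, had 1362, 1821, 2181 and 1735 CPM in exercised replicates 1, 2, 4 and 5. It had 568, 619, 655 and 414 CPM in unexercised replicates 1, 2, 3 and 5. In exercised replicate 3 it stood at 939 CPM and in unexercised replicate 4 at 477 CPM, so all 5 exercised libraries lay above all 5 unexercised ones. Exercised muscle averaged 1775 ± 336 CPM, and unexercised muscle 564 ± 106 CPM (SD, n = 4 each). Its log2 fold change was 1.68 ± 0.17 (SE, 8 libraries), which is 3.21-fold with a 95% interval of 2.46-fold to 4.18-fold (edgeR adjusted p = 0.0013). With 10 libraries the log2 fold change was 1.62 ± 0.40 (SE) and the edgeR adjusted p was 0.169, although the groups still did not overlap. DESeq2 gave an adjusted p of 0.00781 and limma voom with quality weights 0.000459 with the same 10 libraries. This gene model has 2425 bases and lay at place 137 per length.

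That gene model is in the set through its exercised libraries, so its call is not independent of the choice of members. By the mean of the 4 exercised libraries alone it lay at place 47, and by that of the 4 unexercised libraries alone at place 189. Of the 100, 99 were among the 100 highest by the exercised mean and 96 by the unexercised mean, counts that the rule fixes in large part.

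Toward lower levels in exercised muscle no gene model of the set passed, and the lowest p-values belonged to ranks 74 and 35. The gene model of rank 74, Nfu_g_1_022582, had 1107, 931, 1228 and 1144 CPM in exercised replicates 1, 2, 4 and 5 and 1351, 1218, 1775 and 1388 CPM in unexercised replicates 1, 2, 3 and 5. The groups overlap by 1 library each. Its log2 fold change was -0.34 ± 0.15 (SE, 8 libraries; edgeR adjusted p = 0.219), and -0.21 without unexercised replicate 3, its highest library. With 10 libraries it was -0.33 ± 0.54 (SE; edgeR adjusted p = 0.9999). In exercised replicate 3 and unexercised replicate 4 it stood at 417 and 479 CPM.

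Rank 35, Nfu_g_1_016314, had 2072, 2406, 2720 and 2433 CPM in exercised replicates 1, 2, 4 and 5 and 3144, 2749, 3162 and 2664 CPM in unexercised replicates 1, 2, 3 and 5. Its highest exercised library lay above its lowest unexercised library. Exercised replicate 3 had 2000.1 CPM and unexercised replicate 4 had 1911 CPM of it. The log2 fold change was -0.25 ± 0.11 with 8 libraries (SE; edgeR adjusted p = 0.237) and -0.22 ± 0.35 with 10 (SE; edgeR adjusted p = 0.9999). It is 1 of the 5 longest gene models of the set, with 21957 bases.

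Rank 1 had 156594, 141784, 132908 and 122247 CPM in exercised replicates 1, 2, 4 and 5 and 149520, 156685, 127465 and 133092 CPM in unexercised replicates 1, 2, 3 and 5. These values interleave. Its log2 fold change was 0.02 ± 0.16 (SE, 8 libraries; edgeR adjusted p = 0.972), with a 95% interval of -0.33 to 0.37. With library totals in place of TMM factors it was -0.03, so its sign rests on the scaling. With 10 libraries it was 0.02 ± 0.49 (SE; edgeR adjusted p = 0.9999). Rank 2 averaged 56212 ± 4509 CPM over the exercised libraries and 47850 ± 6784 CPM over the unexercised ones (SD, n = 4 each). Its log2 fold change came to 0.27 ± 0.16 (SE, 8 libraries), with an edgeR adjusted p of 0.369. With exercised replicate 3 at 42163 CPM and unexercised replicate 4 at 37065 CPM included, it came to 0.27 ± 0.37 (SE; edgeR adjusted p = 0.9999).

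**Figure D3:**
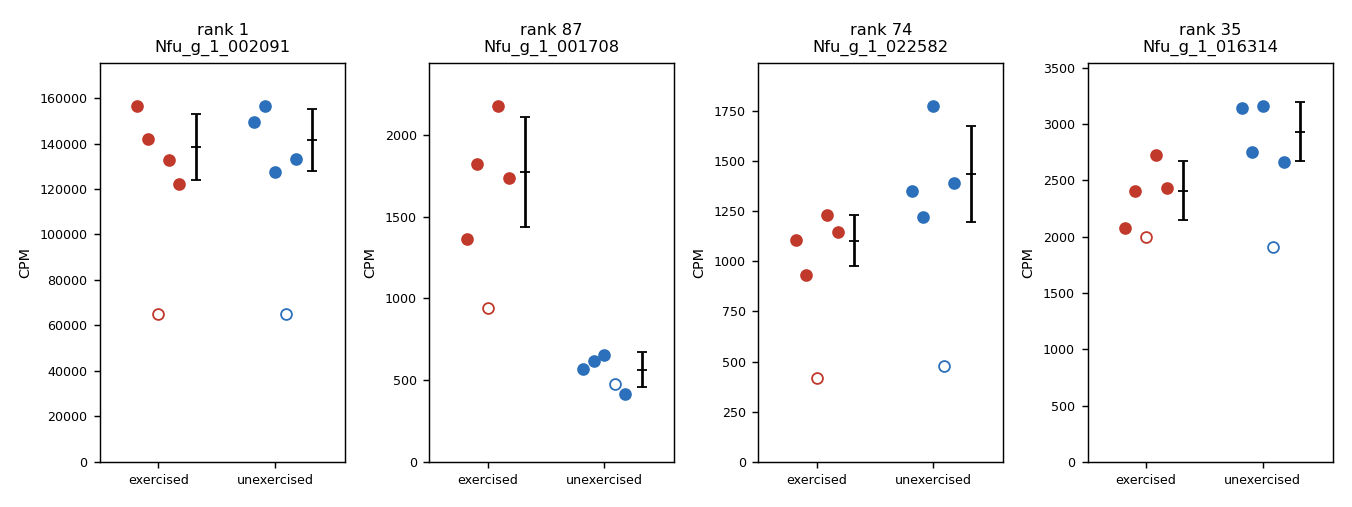
CPM (y axis, from 0) in each library for the 4 gene models named by identifier, exercised in red and unexercised in blue; open circles are exercised replicate 3 and unexercised replicate 4, and black bars give mean and SD of the other 4 libraries. In rank 87 every exercised point, down to 939 CPM, lies above every unexercised point, up to 655 CPM; in the other 3 the groups overlap.

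Without overlap between the groups of 4 there were 4 gene models of the set on the CPM scale, ranks 31, 60 and 85 as lower in exercised muscle beside rank 87 as higher. Over all 15200 tested the groups did not overlap in 10.6%, 6.53% as lower and 4.09% as higher. Rank 60 had 1346, 1396, 1399 and 1384 CPM in exercised replicates 1, 2, 4 and 5 and 1827, 1652, 1404 and 1690 CPM in unexercised replicates 1, 2, 3 and 5. The gap between its groups was narrow, from 1399 to 1404 CPM. The edgeR adjusted p-values of ranks 31, 60 and 85 with 8 libraries were 0.736, 0.371 and 0.654, and each was 0.9999 with 10. With the groups of 5, rank 87 alone had no overlap, 1 of the 100 against 1.2% of all (0.698% higher, 0.502% lower).

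Fold changes of the set were small. With 8 libraries the size of the log2 fold change had a median of 0.10 over the 100 gene models, against 0.23 over all tested, and its quartiles were 0.04 and 0.16. All tested include gene models of much lower counts, and no set of like abundance was compared. The signed log2 fold change had a median of 0.01, with 53 gene models above 0 and 47 below, and the median over all tested was -0.01. With library totals the median of the set was -0.03, so its sign also rests on the scaling. With 10 libraries the size had a median of 0.09 in the set and 0.20 over all tested. For 98 of the 100 the 95% interval lay within 2-fold in either direction, and for 82 within 1.5-fold. The exceptions to the 2-fold bound were ranks 87 and 71, the latter at a log2 fold change of 0.67 (interval -0.16 to 1.49; edgeR adjusted p = 0.343) and at 0.59 with 10 libraries (interval -0.45 to 1.62; edgeR adjusted p = 0.898). Rank 71, like rank 87, is in the set through its exercised libraries. With 10 libraries the intervals were wider, and 58 lay within 2-fold and 10 within 1.5-fold. The shares of all tested gene models within these bounds were not computed. A p above the threshold does not show that a level did not differ, and these intervals give the sizes left possible with TMM factors. Their width depends on the scaling. For rank 1 the standard error with library totals was 0.095 with 8 libraries and 0.271 with 10, against 0.158 and 0.490 with TMM factors. The intervals within these bounds were not counted with other scalings. With 8 libraries the standard error of the log2 fold change had a median of 0.16 in the set, against 0.19 over all tested. With 10 libraries the order was reversed, with a median of 0.39 in the set against 0.30 over all tested.

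**Figure D4:**
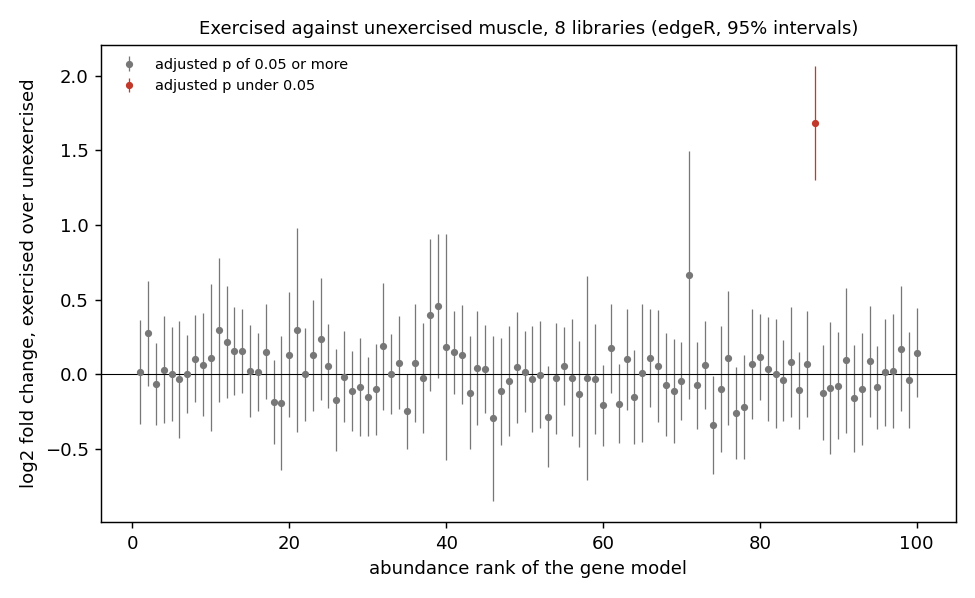
Log2 fold change of exercised over unexercised muscle with its 95% interval (y axis, edgeR, 8 libraries) against abundance rank (x axis), 1 point per gene model. The red point is rank 87 at 1.68, and the 99 grey points lie between -0.34 and 0.67.

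Exercised replicate 3 and unexercised replicate 4 were not used to choose the set, and in both of them most of the set was lower. Relative to the median CPM of the other 8 libraries, 67 of the 100 gene models were lower in exercised replicate 3 and 64 in unexercised replicate 4. Among 15337 gene models tested, 17.9% and 18.7% were lower. More than 2-fold lower were 22 and 30 of the 100, against 3.96% and 4.61% of all tested. More than 2-fold higher were 3 of the 100 in each library, against 49.2% and 49% of all tested. These libraries were set apart after their values were known and the reference libraries chose the set, so no test is given.

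The size of these ratios depends on the scaling. On library totals the median log2 ratio of the set was -0.43 for exercised replicate 3 and -0.51 for unexercised replicate 4. With TMM-scaled totals the medians were -1.37 and -1.44, and 64 and 63 gene models of the set were more than 2-fold lower. The shares of all gene models tested were computed on library totals only, so these counts have nothing to be compared with. Scaled to the counts of the gene models outside the set, the medians were -1.13 and -1.23. The TMM factors of both libraries, 1.67 and 1.69, were above those of the other 8, at 0.756 to 0.95. In bulk tissue, fewer cells of a type and less RNA per cell cannot be told apart, and with no marker genes by name the part of other cell types was not tested.

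As a share of the counts, the fall was largest at the top of the order. Ranks 1 to 10 took 25.1% and 23.4% of the counts in exercised replicate 3 and unexercised replicate 4, against 39.6% to 43.9% in the other 8. Ranks 11 to 50 took 12.9% and 12.6%, against 15.6% to 17.6%. Ranks 51 to 100 took 5.97% and 6.07%, close below the 6.24% to 7.10% of the others. Counted by gene model, 2, 9 and 11 of these tiers, in that order, were more than 2-fold lower in exercised replicate 3. In unexercised replicate 4 the counts were 3, 12 and 15. Relative to the unequal sizes of the tiers, these counts differed little from tier to tier within a library. The median log2 ratios of the tiers to the median of the 8 did differ. They were -0.80, -0.59 and -0.11 in exercised replicate 3, and -0.79, -0.61 and -0.02 in unexercised replicate 4. Above the median of the 8 lay 1, 10 and 22 in exercised replicate 3, and 0, 11 and 25 in unexercised replicate 4. Rank 1 stood at 64868 CPM and 65098 CPM, 0.472 and 0.474 of the median of the other 8. It still took more counts than any other gene model in both libraries.

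Both libraries are set against the same median, taken over the libraries that chose the set, so counts on the same side are in part built in. In both of them 62 gene models lay below the median of the 8 and 31 above it, and 7 lay on different sides. The log2 ratios to that median differed between the 2 libraries by a median of 0.13. More than 2-fold below the median in both were 21 gene models, which took 21.1% to 24.4% of the counts in the 8 libraries and 10.5% and 9.91% in exercised replicate 3 and unexercised replicate 4. The lowest ratios belonged to ranks 88 and 61. Rank 88 stood at 299.9 and 273 CPM, against 832 to 1337 CPM in the other 8. Rank 61 stood at 418 and 329 CPM, against 1271 to 1660 CPM.

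Against the trend, ranks 18, 46 and 60 were more than 2-fold higher in both libraries. Rank 18 stood at 13501 CPM in exercised replicate 3 and 15956 CPM in unexercised replicate 4, against 4465 to 6508 CPM in the other 8. That put it at places 8 and 7 of those libraries' own orders. Rank 46 stood at 4566 and 6800 CPM, against 1398 to 3085 CPM. Rank 60 stood at 3430 and 3652 CPM, against 1346 to 1827 CPM. With TMM-scaled totals 0 gene models of the set were more than 2-fold higher in exercised replicate 3 and 1 was in unexercised replicate 4, so these higher levels hold on library totals.

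The 31 gene models above the median in both libraries were otherwise modest in level. All of them lay at rank 18 or below, and together they took 4.76% to 5.71% of the counts in the 8 libraries. That share was 7.48% for exercised replicate 3 and 8.17% for unexercised replicate 4. Their median length was 1553 bases, against 2698 bases for the 21 gene models that were more than 2-fold lower in both. Among the 8 libraries, unexercised replicate 5 held the highest level for 13 of the 31 and exercised replicate 5 the lowest for 18. Both groups of gene models were formed from their values, so these figures are a description.

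For 7 of the 100 the ratios differed by more than 1.5-fold between these libraries, those of ranks 21, 23, 38, 39, 40, 87 and 91. All 7 were lower in unexercised replicate 4 than in exercised replicate 3. The share of all gene models tested that differed so, in either direction, was not computed. The difference was largest for rank 87, with log2 ratios of -0.10 in exercised replicate 3 and -1.08 in unexercised replicate 4. For rank 38 they were -0.85 and -1.75, and for rank 40 they were -1.04 and -1.92. Of these 7, rank 87 alone passed the test of the exercised against the unexercised group with 8 libraries.

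**Figure D5:**
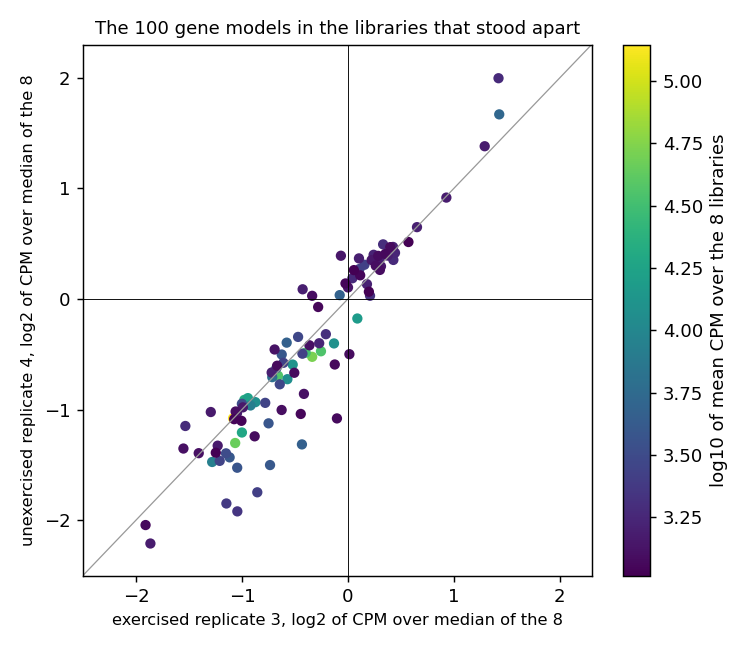
Log2 ratio of CPM to the median of the other 8 libraries, in exercised replicate 3 (x axis) and unexercised replicate 4 (y axis), 1 point per gene model, coloured by the log10 of its mean CPM over the 8; the grey line marks equal ratios. The points lie along the line, 62 of the 100 below 0 in both libraries, 31 above 0 in both and 3 above 1 in both.

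Membership of the highest 100 changed with these libraries. Of the 100 gene models, 89 to 95 were among the 100 highest in each of the 8 libraries that chose the set. Those numbers are in part built in by that choice. Among the 100 highest of exercised replicate 3 there were 70, and among those of unexercised replicate 4 there were 67. In both libraries 28 members were below their highest 100, and the lowest of them, rank 88, stood at places 370 and 409. In their stead 25 gene models from outside the set were among the highest 100 of both libraries. Those 25 took 4.68% and 4.87% of the counts there, against 1.68% to 1.96% in the other 8. The most abundant of them had 6202 and 7507 CPM, against 118 to 190 CPM in the other 8, where it lay at place 505. The 25, and the most abundant of them, were picked by their levels in exercised replicate 3 and unexercised replicate 4. Their higher levels there are in large part built in, and these figures are a description. Choosing the 100 by the mean of all 10 libraries kept 92 of them.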

How the data were processed

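The authors deposited whole-number read counts per gene model in 10 columns, used as deposited, each column matching 1 sample's title. Tools named in the submitters' processing notes, without their roles, are featureCounts 1.4.6-p4, STAR 2.4.1d and bcl2fastq 1.8.4. Per the labels, total RNA went into libraries made by the TruSeq RNA Library Preparation Kit v2. Not given in the sources used here are genome build, annotation, strand setting and handling of shared reads. Counts of gene models that overlap, lie antisense or are near copies are therefore uncertain.

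The deposited RPKM did not follow each library's own total: lengths worked out from them varied by a median CV of 18.9% with own totals and 0.00773% with the totals running down the rows. Lengths were taken under the latter reading and RPKM recomputed from counts. They serve for order per length and for 1 alternative (limma on log2 of RPKM plus 1, which understates changes of low gene models).

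Members and lists were chosen with earlier results of these data known. The rule for identifiers was to print that of rank 1 and at most 2 each way, those passing with the lowest p, or, where none passed, the 2 with the lowest p. Other members go by rank.

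Low counts were removed with filterByExpr, given the groups, a minimum count of 10 and a minimum total of 15. It does not ask for the minimum count in every library. Tests were fitted over all remaining gene models with edgeR 4.0.16 in R 4.3.3, quasi-likelihood with robust estimation, TMM factors and group as the only term, and Benjamini-Hochberg adjustment over all tested. Standard errors were the log2 fold change over the square root of F. Alternatives were RLE factors, library totals, totals outside the set, no filter, DESeq2 1.42.0, limma 3.58.1 and each library left out. The fits were tested on simulated data with known changes. No 2 libraries of the same group were near-duplicates: in 20 pairs within groups, chi-square per degree of freedom was 27.6 or more. Pairs across the groups were not checked. Figures were drawn with matplotlib 3.10.9.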

Additional observations from a re-analysis of the deposited data

Results flagged for a closer look

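In 5 of 16 comparisons of a library with the other 4 of its group, 1 library lay far from the rest. For separate groups chance gives about 1 in 20, but these shares overlap (ranks 1 to 10 are part of the 100), the other 8 libraries chose the set and the libraries concerned had already been set apart, so the 5 are a description and no test. The gap to the nearest library, divided by the group's range, exceeded 0.71. Exercised replicate 3 was low for the share of all 100 gene models, at 44.0% of the counts, for ranks 1 to 10, at 25.1%, and for ranks 11 to 50, at 12.9%. Unexercised replicate 4 was low for all 100 gene models, at 42.0%, and for ranks 1 to 10, at 23.4%. Taken gene model by gene model over the 100, exercised replicate 3 was far below its group for 20 and far above it for 4, and unexercised replicate 4 was far below for 16 and above for 3. Over all 15337 gene models tested, exercised replicate 3 was far below for 0.782% and above for 41.7%, and unexercised replicate 4 was far below for 0.874% and above for 44.2%. In the other libraries there were 3 such cases among the 100, 1 each in exercised replicates 1 (above), 2 (below) and 4 (above). Of all gene models tested, 0.267% were far above in exercised replicate 1. In exercised replicate 2, 0.0456% were far below, and in exercised replicate 4, 0.117% were far above.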

How the results depend on the processing

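With 8 libraries, 1 gene model of the set passed under all alternatives run, rank 87 each time, while 2.33% to 11.7% of all gene models tested passed, and its log2 fold change without 1 library each ranged from 1.56 to 1.77. With 10 libraries, the 0 members passing became 1 with DESeq2, with limma voom and without exercised replicate 3 (2.69%, 11.9% and 1.58% of all tested passed), where the log2 fold changes of Nfu_g_1_001708 were 1.62, 1.70 and 1.85, and stayed at 0 under the other alternatives. The range over libraries left out was 0 to 1. The mean share with 4 libraries each was 58.8% in exercised and 58.3% in unexercised muscle for the 50 highest gene models, and 72.7% and 72.7% for the 200 highest. Leaving out 1 library kept it within 64.3% to 66.0% and 64.3% to 65.5%. The median CV of the set over the 8 libraries was 15.6% with TMM-scaled totals, against 11.8% on library totals. On library totals it was 21.3% with all 10 libraries. Of the set, 64 in exercised replicate 3 and 63 in unexercised replicate 4 were more than 2-fold lower with TMM-scaled totals, 56 and 62 with totals outside the set, and 43 and 48 were lower by more than 1.5-fold; more than 2-fold higher were 0 and 1 with TMM-scaled totals, 0 and 1 with totals outside the set, and 5 and 5 by more than 1.5-fold. The cause was not tested. For these counts under other scalings or at 1.5-fold, the shares of all gene models tested were not computed. No paired analysis was possible because the replicate numbers used here only follow accession order, and the labels give none that the groups share.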
